A study of Mus musculus with 3 samples.

Results

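Dense runs of open chromatin were described across the autosomes of sorted mouse skin nuclei. A run was defined by position alone. Open regions (features) were sorted along each autosome, neighbours with a gap of at most 2000 bp were joined, and stretches of 8 or more features were kept. The rule gave 3315 runs that held 38148 of the 308931 autosomal features (12.3%), out of 315694 features in all. The joined stretches numbered 164822, of which 105070 were a lone feature and 56437 had 2 to 7 features.

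The features came from single-nucleus ATAC-seq, an assay in which a transposase cuts and tags accessible DNA, of GFP-positive nuclei sorted out of back skin. The mice were Dct-rtTA; Tre-H2B-GFP, so that doxycycline turns on a histone-GFP fusion wherever the Dct promoter is used, and the sort depends on that promoter and on how long the label lasts. UVB nuclei came from a pool of 24 mice given UVB at 2.2 mJ/cm2 on 3 occasions, sequenced as technical replicates to which nuclei could not be assigned, so UVB was 1 sample. Anagen nuclei came from 8 mice in which the growth phase of the hair cycle was started by depilation with Nair, and telogen nuclei came from 12 mice in the resting phase. All received doxycycline for 5 days (20 mg in 100 ml of water). Their age is given as 7 weeks in the treatment text and as 8 weeks in the sample characteristics. Each condition was thus 1 pooled sample with no replicate check, and no test or p-value between conditions is given. Anagen and telogen nuclei were in the same library and UVB nuclei were not, so an effect of UVB and one of library cannot be told apart.

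Accessible DNA marks promoters and enhancers, the stretches that transcription factors bind. Closely spaced open regions occur around gene starts and in clusters of enhancers, which are known to lie in and near genes that define a cell type. In the melanocyte lineage Mitf, Sox10 and Pax3 encode leading transcription factors, and Tyr, Tyrp1 and Dct encode the enzymes that make melanin.

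Counted once within each condition, there were 6554 UVB, 3753 anagen and 2042 telogen nuclei. Their counts summed to 16183702, 10397896 and 5225945, with medians of 1726, 1577 and 1650 for a nucleus. Levels are given in CPM, a run's counts scaled to the same total over all features in each group, so a longer run has more and levels are compared only for the same run. Ratios carry exact binomial 95% intervals for counting error only, and these are too narrow because 61.0% of entries were the value 2, that is, counts came mostly in pairs. In summed nuclei, fewer nuclei of a type and less signal per nucleus cannot be told apart. Barcodes carried tag numbers that the labels do not explain. UVB tag number 19 held 2934 UVB nuclei, anagen tag number 3 held 1535 anagen nuclei, and 506 barcodes were seen in more than 1 condition. Whether these 506 were the same nuclei in each condition was not tested, and none was left out for it. Nuclei that met a rule for open melanocyte markers made up 5.69% of UVB, 10.5% of anagen and 1.47% of telogen nuclei, and those open at no marker list made up 80.2%, 70.9% and 75.1%. Classed by clustering instead, 45.8% of UVB, 30.7% of anagen and 11.2% of telogen nuclei were in 3 clusters whose leading marker list was melanocyte, so the order of UVB and anagen depended on how nuclei were classed. In 2 of these clusters, which held most of these UVB nuclei, the median marker stood at 2.03 and 1.76 times its level in the other nuclei, and in the one that held most of these anagen nuclei at 4.60 times.

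Sequences upstream of 5 gene starts that lie in runs are shown as examples, since these runs carry differences described below. Each is the 250 bases before the RefSeq start (GRCm38.p6), written 5′ to 3′ along the gene. Capitals mark TCATGTGCT, a motif known as the M-box of pigment genes, and the E-box CATGTG inside it or alone. They also mark GGGCGG (the GC box) and TATAAA (the letters of the TATA box, at any distance from the start). All were read on both strands. The AP-1 motif TGANTCA was searched too and had no match in these windows. Dct lies at chr14:118052247-118052496, minus strand. Tyr lies at chr7:87493513-87493762, minus strand. Tyrp1 lies at chr4:80833963-80834212, plus strand. Fos lies at chr12:85473640-85473889, plus strand. Twist1 lies at chr12:33957421-33957670, plus strand.
Dct: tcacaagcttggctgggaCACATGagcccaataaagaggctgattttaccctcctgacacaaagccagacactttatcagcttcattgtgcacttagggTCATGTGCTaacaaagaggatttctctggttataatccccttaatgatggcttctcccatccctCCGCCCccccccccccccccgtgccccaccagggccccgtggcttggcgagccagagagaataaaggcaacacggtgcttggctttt
Tyr: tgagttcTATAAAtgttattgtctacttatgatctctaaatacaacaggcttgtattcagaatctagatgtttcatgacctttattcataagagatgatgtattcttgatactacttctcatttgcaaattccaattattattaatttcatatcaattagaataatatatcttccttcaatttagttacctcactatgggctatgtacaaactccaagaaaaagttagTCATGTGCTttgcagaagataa
Tyrp1: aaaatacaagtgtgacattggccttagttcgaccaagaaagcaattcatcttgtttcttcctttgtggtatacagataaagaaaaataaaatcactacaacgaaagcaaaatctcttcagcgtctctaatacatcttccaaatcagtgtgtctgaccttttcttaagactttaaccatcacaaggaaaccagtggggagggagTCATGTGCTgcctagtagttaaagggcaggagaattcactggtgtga
Fos: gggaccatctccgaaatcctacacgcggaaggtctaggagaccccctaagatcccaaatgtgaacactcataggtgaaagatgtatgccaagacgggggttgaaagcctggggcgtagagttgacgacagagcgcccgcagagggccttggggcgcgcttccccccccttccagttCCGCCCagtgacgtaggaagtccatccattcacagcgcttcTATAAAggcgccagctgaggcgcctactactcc
Twist1: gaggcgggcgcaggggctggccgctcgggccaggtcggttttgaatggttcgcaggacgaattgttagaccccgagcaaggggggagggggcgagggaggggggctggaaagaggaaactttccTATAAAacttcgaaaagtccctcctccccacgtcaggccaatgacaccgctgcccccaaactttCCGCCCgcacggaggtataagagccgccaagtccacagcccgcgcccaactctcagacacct

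The Dct, Tyr and Tyrp1 windows each held TCATGTGCT, and Fos and Twist1 did not. The windows of Foxd3, Krt14 and Malat1, whose runs are also described below, were searched too and held none of the capitalised motifs. Foxd3 is in the melanocyte lineage list, so not every lineage window had TCATGTGCT. GGGCGG was in the Fos, Twist1 and Dct windows, and TATAAA in those of Fos, Twist1 and Tyr. TCATGTGCT was in 0.335% of the 2687 windows of gene starts in runs and in 0.338% of all 31396 autosomal windows. CATGTG was in 8.93% of those in runs against 12.2% of all, TGANTCA in 5.55% against 6.77%, TATAAA in 6.25% against 12.4%, CCAAT (not capitalised above) in 31.7% against 33.7%, and GGGCGG in 56.7% against 33.0%. Starts outside runs that lay within 500 bp of a feature had CATGTG in 8.97%, TGANTCA in 5.55%, TATAAA in 7.92%, CCAAT in 33.6%, GGGCGG in 47.6% and TCATGTGCT in 0.183%. Beside these, CATGTG and TGANTCA were as frequent in runs, and GGGCGG more frequent. The shares of TCATGTGCT rest on few windows, those of Dct, Tyr and Tyrp1 among them, and its share in runs was close to that of all starts. Their median GC content was 60.4% and their CpG observed-over-expected ratio 0.641, against 51.6% and 0.356 for the 28709 starts outside runs. The 15825 starts outside runs near a feature stood closer, at 57.6% and 0.632. A match describes the letters in a window and does not show that a factor binds there.

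Runs were short on the scale of genes. Their median length was 10353 bp, with a range of 4757 to 64961 bp, and the median gap between their 500-bp features was 384 bp. At the threshold, the 912 runs of 8 features had a median of 1039.5 counts, and the 1360 stretches of 7 features just outside it had 828.5. Per feature these were 130 and 118 counts. Counts per feature had a median of 17 in lone features, 54.2 in stretches of 2 to 6, 142 in runs of 9 to 11, 151 in runs of 12 to 19 and 189 in the 205 runs of 20 or more. Signal per feature was thus higher in each larger class of stretch. Whether the depth of signal set how many features were called was not tested.

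**Figure D1:**
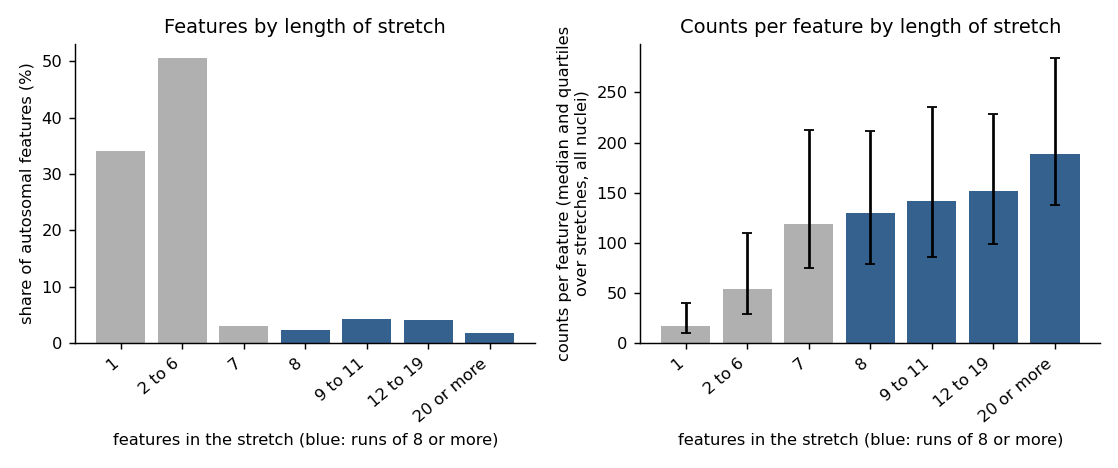
Share of autosomal features (percent) and counts per feature (median with quartiles) by the number of features in a stretch, with runs of 8 or more in blue. The median goes from 17 counts in lone features to 189 in runs of 20 or more, with 118 at 7 features and 130 at 8.

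Runs held 21.7% of UVB, 22.4% of anagen and 22.1% of telogen counts in 12.3% of autosomal features. A feature in a run had a median of 73 counts over all nuclei, against 32 outside. Of features in runs, 13.3% lay within 1 kb of a gene start, against 8.45% outside. These held 36.0% of the counts in runs and 36.7% of those outside. Beyond 1 kb the medians were 65 in runs and 29 outside, so the higher level in runs was also there away from gene starts. Within runs, inner features had a median of 79 counts, and the first and last features had 52. The most open feature held a median of 34.5% of its run's counts. By chromosome, the share of features in runs went from 8.04% on chromosome 13 to 17.2% on chromosome 11.

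Most runs lay in genes, and most did not contain a gene start. A gene body overlapped 2858 runs (86.2%), and 604 runs overlapped several. The other 457 runs lay outside gene bodies, at a median of 26340 bp from the nearest gene. A gene start lay in 1393 runs (42.0%), and 1922 (58.0%) had none. Such shares are not given for shorter stretches, so these values describe runs and do not set them apart from other open regions. Single genes could hold several runs. Zmiz1, which encodes a transcriptional co-regulator, overlapped 8 runs with 94 features, and Mgll, the monoacylglycerol lipase gene, overlapped 7 with 73 features.

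Of 20661 protein-coding genes on autosomes, 2879 (13.9%) overlapped a run. In the lists of genes used here the share differed widely. Runs overlapped 22 of 26 melanocyte lineage genes and 21 of 24 immediate early and AP-1 genes, which encode transcription factors and feedback regulators that respond within minutes to stimuli. They overlapped 19 of 39 Hox genes, 15 of 32 skin patterning factors, 4 of 15 epidermal factors, 5 of 12 endothelial factors and 7 of 13 housekeeping genes. Among the marker lists, 14 of 15 melanocyte markers overlapped a run (all but Slc45a2), against 7 of 13 keratinocyte, 5 of 10 fibroblast, 3 of 11 myeloid and Langerhans, 2 of 13 endothelial and 0 of 8 Schwann markers. Gene length differed too: protein-coding genes had a median length of 17491 bp and those overlapping a run 26131 bp. The melanocyte lineage list had a median of 29203.5 bp, whereas immediate early genes (5318 bp) and Hox genes (3737 bp) were short.

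The run with most features lay over Neat1 and Malat1, a pair of genes for nuclear long noncoding RNAs, at chr19:5791670-5853065 with 81 features. It had 904 CPM in UVB, 946 CPM in anagen and 1058 CPM in telogen nuclei, so the conditions were close. Next came a run over Dct, the dopachrome tautomerase gene of melanin synthesis, at chr14:117992862-118057822 with 75 features, and a run over Pax3, a transcription factor gene of the melanocyte lineage, at chr1:78138710-78199346 with 63 features. The Dct run had 547 CPM in UVB, 681 CPM in anagen and 142 CPM in telogen nuclei. The Pax3 run had 270 CPM in UVB, 318 CPM in anagen and 63.7 CPM in telogen nuclei. Both were thus several times lower in telogen. The other 7 of the 10 largest held 46 to 51 features and lay over Iqcn, Lsm4 and Jund, over Lmna, over Adamtsl4 and Mcl1, over Nfic, over Morn1 and Ski, over Rara and Cdc6, and over Midn and Atp5d. The Lmna run, over the lamin A gene, had 625 CPM in UVB, 529 CPM in anagen and 631 CPM in telogen nuclei, and no ratio between conditions in these 7 runs was past 1.5-fold.

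Within the Dct run the signal was spread differently in each condition. The most open feature, at chr14:118052266-118052765, lay 269 bp upstream of the Dct start and overlapped the sequence shown above. It held 60.2% of the run's counts in UVB, 27.7% in anagen and 47.3% in telogen nuclei. That feature had 329 CPM in UVB, 189 CPM in anagen and 67.2 CPM in telogen nuclei. The rest of the run had 218 CPM in UVB, 492 CPM in anagen and 74.8 CPM in telogen nuclei. The promoter feature was thus highest in UVB and the remaining features together were highest in anagen. All mice carried the Dct-rtTA transgene, and whether its copies added counts at this feature or those upstream of it was not tested. Of the 75 features, 73 were higher in anagen than in telogen, 69 were higher in UVB than in telogen, and 2 were higher in UVB than in anagen.

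**Figure D2:**
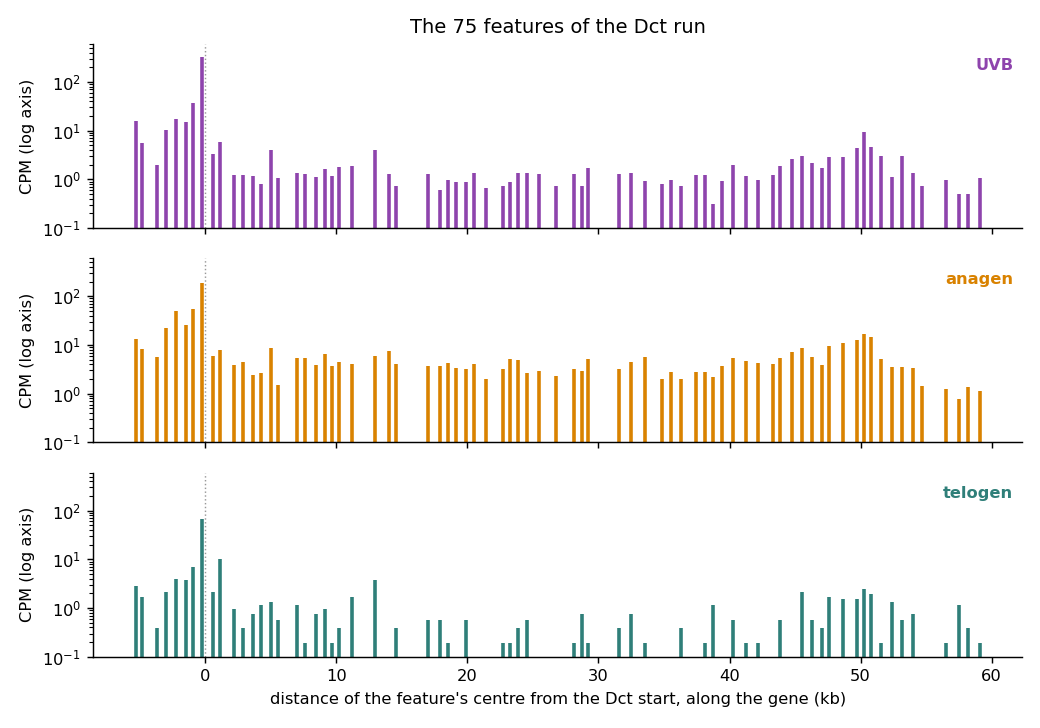
Each of the 75 features of the Dct run by its distance from the Dct start (kb) and its level (CPM, log axis), with panels for UVB, anagen and telogen nuclei; features at 0 have no bar. One feature near the start stands out in UVB at 329 CPM, while in anagen the features across the gene are raised together.

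The Tyrp1 run, over the gene of another melanin enzyme (chr4:80828156-80855067, 34 features), had the same order. Its top feature, at the gene start, held 22.8% of the run's counts in UVB, 11.3% in anagen and 19.2% in telogen nuclei, and 4 of the 34 features were higher in UVB than in anagen. In the Pax3 run 17 of 63 features were higher in UVB than in anagen, and in the Sox10 run (chr15:79152007-79177161) 4 of 29 were. All 63 Pax3 features and all 34 Tyrp1 features were higher in UVB and in anagen than in telogen. In the Neat1 and Malat1 run 28 of 81 features were higher in anagen than in telogen and 18 in UVB than in telogen, so that run had no such common direction.

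Over all nuclei a run was called where its ratio was past 1.5-fold and both conditions together had at least 200 counts. The same call was made over autosomal stretches of any size, as a background. In anagen over telogen, 832 of 3229 runs were higher (25.8%, against 23.7% of all stretches) and 487 were lower (15.1% against 13.2%). In UVB over telogen, 551 of 3232 runs were higher (17.0% against 23%) and 456 were lower (14.1% against 12.6%). In UVB over anagen, 311 of 3283 were higher (9.47% against 18.2%) and 613 were lower (18.7% against 17.6%). Shares near the background say nothing particular about runs. The largest gap to it was the lower share of runs higher in UVB. Median log2 ratios of runs were 0.04, -0.05 and -0.08 in these comparisons, against -0.04, 0.01 and 0.02 for all stretches. Larger stretches have more counts and so less scatter, and the part of that in these shares was not tested.

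Runs without a gene start were called more often than those with one, by a wide margin in some directions and a small one in others. In anagen over telogen, 670 of 1845 runs with no gene start were higher (36.3%), against 162 of 1384 with one (11.7%). The shares lower were close, at 15.8% and 14.2%. In UVB over telogen, 24.8% against 6.71% were higher, and 15.1% against 12.8% were lower. In UVB over anagen, 485 of 1896 runs with no gene start were lower (25.6%), against 128 of 1387 with one (9.23%). There the runs with no gene start were not alike. Of those outside gene bodies, 21.6% were higher and 12.6% lower. Of those that overlapped a gene, 8.88% were higher and 29.7% lower. All of these contrasts rest on the same pools of nuclei.

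Of the 31 runs that overlap a melanocyte lineage gene, 27 were higher in anagen than in telogen by over 1.5-fold and none was lower, with a median log2 ratio of 2.25. In UVB over telogen 22 of 30 were higher and none lower (median 1.22). In UVB over anagen 1 was higher and 15 were lower (median -0.58). The median run of the list had 46.3 CPM in UVB, 75.3 CPM in anagen and 19.9 CPM in telogen nuclei, against 47.7, 52.4 and 45.5 CPM for the median of all runs. The UVB over anagen counts depended on the nuclei used: 8 of the list's runs were lower without nuclei above 3 times the median count, and 9 without UVB tag number 19. Nuclei that met the rule for open melanocyte markers had medians of 4391 counts in anagen and 1696 in UVB. The limit of 3 times the median thus lay nearer the depth of the anagen ones. The share of nuclei classed as melanocyte was lowest in telogen by marker openness (1.47%) and by clustering (11.2%). Between UVB and anagen it was 5.69% and 10.5% by marker openness and 45.8% and 30.7% by clustering, so only the first had the order of the runs. The part of these shares in the ratios was not tested.

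**Figure D3:**
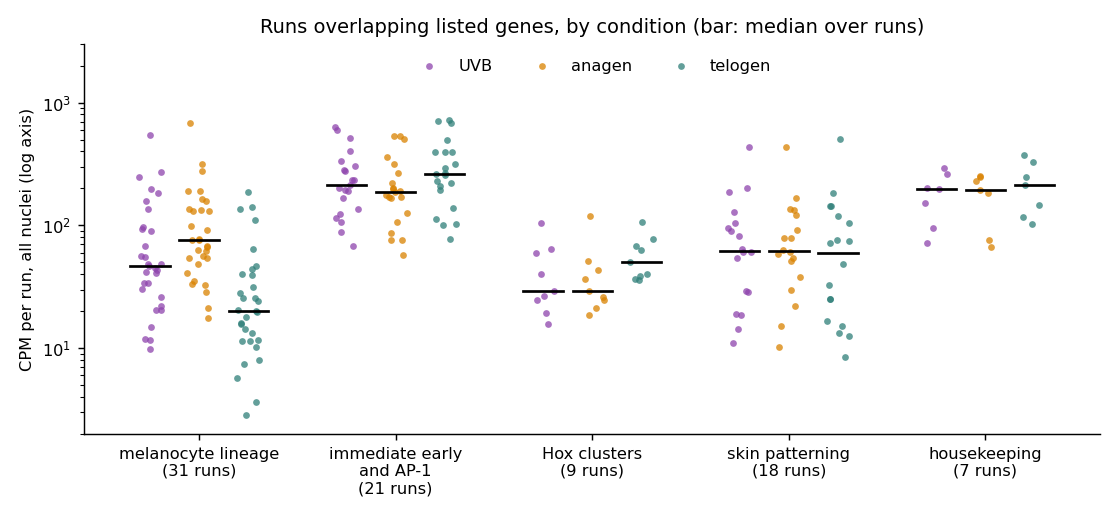
Level of each run (CPM, log axis) in UVB, anagen and telogen nuclei, for runs that overlap genes of 5 lists; points are runs and bars are medians. The 31 melanocyte lineage runs have medians of 46.3, 75.3 and 19.9 CPM, while the 21 immediate early runs have 212, 188 and 263 CPM.

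Among the transcription factor genes of the lineage, the Pax3 run over the gene was 4.99 times as high in anagen as in telogen (95% interval 4.45 to 5.6) and 4.24 times as high in UVB as in telogen (3.79 to 4.75). Across tag numbers of at least 50 nuclei it had 0 to 608 CPM in UVB, 161 to 587 CPM in anagen and 23.4 to 138 CPM in telogen, so anagen and telogen tags did not overlap. The Sox10 run had 135 CPM in UVB, 189 CPM in anagen and 39.0 CPM in telogen nuclei. Sox10 encodes a neural crest factor kept through the lineage, and its run was 4.84 times as high in anagen as in telogen (4.19 to 5.62). Mitf, the master regulator gene of the lineage, overlapped 3 runs that differed among themselves. The run at chr6:97972089-98007468 (32 features) had 158 CPM in UVB, 130 CPM in anagen and 40.0 CPM in telogen nuclei. Those at chr6:97844970-97857753 and chr6:97814188-97822125 had 21.9 and 30.5 CPM in UVB, 33.6 and 48.3 CPM in anagen, and 20.5 and 31.2 CPM in telogen nuclei. The first was thus raised in UVB and anagen, and the other two were near the telogen level in UVB (ratios of 1.07 and 0.979).

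Foxd3, a neural crest factor gene, and Alx1, a homeobox gene, had runs that were highest in UVB. The Foxd3 run had 48.1 CPM in UVB, 35.0 CPM in anagen and 15.7 CPM in telogen nuclei. The run over Alx1 and Gm34298 had 81.6 CPM in UVB, 51.3 CPM in anagen and 12.4 CPM in telogen nuclei, 6.56 times as high in UVB as in telogen (5.11 to 8.55). A run 30197 bp from Pax3 (chr1:78054129-78071069) followed the same order, with 116 CPM in UVB, 76.1 CPM in anagen and 17.2 CPM in telogen nuclei. Its ratio of UVB to anagen was 1.53 (1.41 to 1.67), whereas the run over Pax3 itself had 0.849 (0.812 to 0.889).

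Among the enzymes of melanin synthesis, the Dct run was 4.79 times as high in anagen as in telogen (4.44 to 5.18) and 3.85 times as high in UVB as in telogen (3.58 to 4.16). A count in the run was present in 2503 UVB, 1095 anagen and 279 telogen nuclei. By tag number it had 110 to 989 CPM in UVB, 399 to 1170 CPM in anagen and 41.8 to 323 CPM in telogen. Anagen tags thus all lay above telogen tags, while UVB tags overlapped both. The UVB over anagen ratio, 0.804 (0.779 to 0.829), turned with the nuclei used: its log2 of -0.32 became 0.42 without nuclei above 3 times the median count and 0.27 without UVB tag number 19. The Tyr run (chr7:87483655-87495892, 15 features), over the tyrosinase gene, had 42.9 CPM in UVB, 66.6 CPM in anagen and 5.74 CPM in telogen nuclei. The Tyrp1 run had 94.2 CPM in UVB, 157 CPM in anagen and 19.9 CPM in telogen nuclei. Both were lower in UVB than in anagen (0.643 and 0.6), and both turned to log2 0.15 without nuclei above 3 times the median count. As said above, that limit lay nearer the depth of anagen than of UVB nuclei that met the melanocyte rule. The part of this in the Dct, Tyr and Tyrp1 ratios was not tested.

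Among melanosome proteins, channels and transporters, the Trpm1 runs set anagen apart. Trpm1 encodes a cation channel, and its run at chr7:64198320-64224325 (33 features) had 26 CPM in UVB, 163 CPM in anagen and 25.6 CPM in telogen nuclei. The ratio of UVB to anagen was 0.159 (0.142 to 0.177), and that of UVB to telogen was 1.01 (0.831 to 1.24). This run was low in UVB under each choice of nuclei tried, with log2 ratios to anagen from -2.92 to -2.07. Its neighbour within the same gene (chr7:64184121-64196309) had 41.5 CPM in UVB, 131 CPM in anagen and 11.5 CPM in telogen nuclei. The Slc24a5 run, over a melanosomal cation exchanger gene, had 20.3 CPM in UVB, 54.0 CPM in anagen and 3.64 CPM in telogen nuclei. It was 14.8 times as high in anagen as in telogen (9.41 to 24.8). The Mlana run, over a melanosome biogenesis gene, had 68.0 CPM in UVB, 77.0 CPM in anagen and 13.4 CPM in telogen nuclei. The run over Pmel, which encodes the fibril protein of melanosomes, and Cdk2 differed little by comparison, with 250 CPM in UVB, 275 CPM in anagen and 186 CPM in telogen nuclei.

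Of the receptor genes, Kit, whose product is needed for melanocyte survival, overlapped 3 runs. The run at chr5:75645230-75662883 had 90.0 CPM in UVB, 134 CPM in anagen and 18 CPM in telogen nuclei. The one at chr5:75592492-75615082 had 20.5 CPM in UVB, 67.4 CPM in anagen and 11.7 CPM in telogen nuclei. The order of conditions was the same, and the UVB over anagen ratios were 0.670 (0.622 to 0.721) and 0.303 (0.265 to 0.346). The Ednrb run, over the endothelin receptor B gene, had 11.7 CPM in UVB, 28.5 CPM in anagen and 10.1 CPM in telogen nuclei.

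The runs with the highest anagen over telogen ratios lay over Prmt3, Eps8, Scrn1, Tenm4 and Slc24a5. The Prmt3 run, over an arginine methyltransferase gene, had 7.41 CPM in UVB, 40.7 CPM in anagen and 1.34 CPM in telogen nuclei, a ratio of 30.4 (14.6 to 76.0). The Eps8 run at chr6:137514732-137521327 had 8.90 CPM in UVB, 61.5 CPM in anagen and 3.64 CPM in telogen nuclei. Both were several times higher in anagen than in either other condition, whereas the run over Enpp6, a choline phosphodiesterase gene with the highest ratio in UVB over telogen, had 37.3 CPM in UVB, 50.4 CPM in anagen and 4.98 CPM in telogen nuclei. In UVB over anagen the lowest runs, apart from the one over Myh6 described below, lay over Pde10a, Slc24a4, Xpo6 and Eps8. Slc24a4 encodes a relative of Slc24a5, and its run had 4.14 CPM in UVB, 33.4 CPM in anagen and 3.83 CPM in telogen nuclei.

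The runs lowest in anagen over telogen lay over Krt15 and Krt19, Casz1, Plbd1 and Krt14 and near Slc25a48, among them keratin genes of basal and follicle keratinocytes. The Krt14 run (chr11:100198705-100212235) had 45.2 CPM in UVB, 9.71 CPM in anagen and 69.8 CPM in telogen nuclei. The Krt15 and Krt19 run had 20.9 CPM in UVB, 5.29 CPM in anagen and 46.7 CPM in telogen nuclei. Nuclei open at keratinocyte markers made up 4.13% of UVB, 1.57% of anagen and 7.59% of telogen nuclei, and the part of this in these runs was not tested. Krt14 was 4.65 times as high in UVB as in anagen (3.77 to 5.78), and without UVB tag number 19 that log2 ratio of 2.22 was 0.67. The runs lowest in UVB over telogen, apart from Myh6, lay over Dtx1, Ccl9, Rgs1, and Gimap1 and Gimap5. Ccl9 encodes a chemokine, and its run had 5.93 CPM in UVB, 7.50 CPM in anagen and 37.1 CPM in telogen nuclei. Nuclei open at myeloid and Langerhans markers made up 0.595% of UVB, 0.906% of anagen and 3.33% of telogen nuclei, and their part was not tested.

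The run over Myh6, the cardiac myosin heavy chain gene, and the noncoding Mhrt (chr14:54965391-54970814, 9 features) stood apart from the rest and followed tag numbers. It had 8.96 CPM in UVB, 560 CPM in anagen and 282 CPM in telogen nuclei. Telogen tag numbers 1 to 7 gave 4 counts in 912 nuclei (1.34 CPM), and tag numbers 8 to 10 gave 1468 counts in 1130 nuclei (658 CPM). Anagen tags had 151 to 1094 CPM. UVB tags had a median of 2.74 CPM, with 1754 CPM in tag number 7, which held 96 of the 145 UVB counts in 51 nuclei. In anagen the level was 181 CPM in nuclei open at melanocyte markers, 375 CPM in those open at another list and 900 CPM in those open at none. In telogen these were 715 CPM (28 counts), 145 CPM and 398 CPM, another order. With telogen tag numbers 1 to 7 alone, the log2 ratio of UVB to telogen was 2.75 in place of -4.97, so the direction at this run depended on which telogen tags were used.

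To compare runs between kinds of nuclei, each nucleus was given the marker list, of 10, with the highest ratio of open features to the number expected at its depth. It was called melanocyte-open, or other-marker-open, where that ratio was at least 2 and at least 3 features over at least 2 genes of the list had a count. This gave 373 and 927 nuclei in UVB, 395 and 696 in anagen, and 30 and 478 in telogen. The summed level of the melanocyte list was 6537 CPM in melanocyte-open and 1202 CPM in other-marker-open UVB nuclei, 6839 and 1891 CPM in anagen, and 6663 and 558 CPM in telogen. The melanocyte markers thus had counts in both groups. Of the melanocyte-open nuclei, 124 in UVB, 92 in anagen and 9 in telogen lay just above the limit. The 1759 features at marker genes, 762 of them in runs, were left out of these comparisons, so 15 of the 31 lineage runs, among them those over Pax3, Tyr, Mitf, Kit and Pmel, have no value here and the Dct run keeps 26 of its 75 features. Median counts per melanocyte-open nucleus were 1696 in UVB, 4391 in anagen and 1357.5 in telogen.

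Of 944 runs with enough counts in each condition, 17 were higher in melanocyte-open than in other-marker-open nuclei in all 3 conditions (1.80%, against 0.935% of all stretches) and 83 were lower (8.79% against 4.48%). The 30 telogen nuclei gave a median of 1 count per run, so most telogen values rest on a few counts. The 17 and 83 runs became 1 and 22 without nuclei above 3 times the median count, and 11 and 29 without UVB tag number 19. In anagen alone 708 of 2318 runs were higher (30.5% against 23.8%) and 589 lower (25.4% against 15.8%). In UVB alone 454 of 2152 were higher (21.1% against 24.2%) and 743 lower (34.5% against 22.9%). Asking for anagen and UVB together, a choice made after seeing the data, gave 282 of 1886 runs higher (15.0% against 9.24%) and 369 lower (19.6% against 10.4%). In telogen alone 165 of 976 were higher (16.9% against 22.8%) and 376 lower (38.5% against 30.8%).

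Across all 3 conditions the highest runs lay over Nav2, Myo10, Phlda1, Enc1, Fam53b, Acsl3 with Utp14b, Tfeb, Ets1, Notch1 and Cyrib. The Nav2 run, over a neuron navigator gene, had 335 CPM in melanocyte-open and 114 CPM in other-marker-open UVB nuclei. In anagen it had 226 and 102 CPM, and in telogen 281 and 79.8 CPM. It was thus 2.95, 2.22 and 3.52 times as high in melanocyte-open nuclei, and the telogen value rests on 11 counts. Tfeb encodes a relative of Mitf, and its run had ratios of 1.81 in UVB, 1.75 in anagen and 1.70 in telogen, the last on 7 counts. Against endothelial-open nuclei alone the anagen log2 ratios of Notch1, Cyrib and Tfeb were -0.60, -0.50 and -0.094.

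The lowest runs across all 3 conditions lay over Trim29, Ehd2 with Nop53, Pgghg with Ifitm2, Fbn1, Nfix with Lyl1, Krt78 and Ube2g2 and near Cebpb, Haao and Pim1. The Fbn1 run, over the fibrillin gene of connective tissue, had 25.2 CPM in melanocyte-open and 260 CPM in other-marker-open UVB nuclei, and 16.3 and 225 CPM in anagen. The Trim29 run, over a gene of stratified epithelia, had 28.6 and 125 CPM in UVB and 10.1 and 90.9 CPM in anagen. Their telogen values rest on 1 and 2 counts in melanocyte-open nuclei.

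In anagen and UVB together, ranked after the values were seen, the highest runs lay over Eps8, Vgll2, Iqschfp with Schip1, Adgb, Dct and Sytl2 and near Tas2r134, Bcl2l14, Pax3 and Igsf3. The Vgll2 run (chr10:52018600-52037986, 24 features), over a transcriptional cofactor gene, had 449 CPM in melanocyte-open and 87.6 CPM in other-marker-open UVB nuclei, and 666 and 154 CPM in anagen. The ratios were 5.12 (4.45 to 5.90) and 4.31 (3.9 to 4.78). The Dct run, at features outside the marker window, had 240 and 45.7 CPM in UVB and 533 and 130 CPM in anagen. The run near Pax3 had 298 and 46.3 CPM in UVB and 160 and 40.3 CPM in anagen. These runs were 3.97 to 6.43 times as high in melanocyte-open nuclei.

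The runs lowest in both lay over Tns1, Adamts2, Shc2, Il1rl2 and Ablim1 and near Dysf, Plekhg1, Acox3 and Ampd3. The run near Acox3 had 2 counts in melanocyte-open and 707 in other-marker-open UVB nuclei, and 7 and 423 in anagen, ratios of 0.0154 and 0.0205. The Adamts2 run, over a procollagen-processing enzyme gene, had 2.29 and 126 CPM in UVB and 2.71 and 91.9 CPM in anagen.

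**Figure D4:**
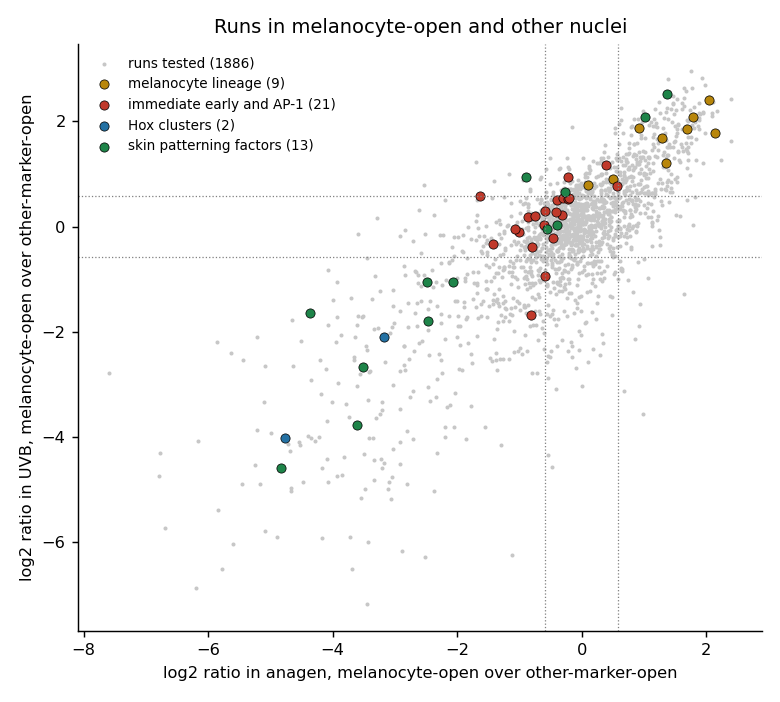
Log2 ratio of melanocyte-open to other-marker-open nuclei for 1886 runs in anagen (x axis) and in UVB (y axis); colours mark runs of the lists and dotted lines mark 1.5-fold. All 9 melanocyte lineage runs lie above 0 on both axes, both Hox runs lie at the lower left, and the 13 patterning runs spread across both ends.

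Of the lineage runs that kept enough counts outside marker features, 9 of 11 in anagen and 10 of 10 in UVB were higher in melanocyte-open nuclei, with median log2 ratios of 1.69 and 1.73, against -0.01 and -0.09 for all runs. The nuclei were chosen by other features of some of the same genes, so this is a description of the choice as well. Lef1, whose product acts in Wnt signalling, was in no marker list, and its run had 104 and 28.8 CPM in UVB and 156 and 48.4 CPM in anagen. The Foxd3 run had 111 and 26.1 CPM in UVB and 61.3 and 17.8 CPM in anagen, and the run over Bcl2, a survival gene, had 184 and 50.5 CPM in UVB and 142 and 74.7 CPM in anagen.

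Most Hox and patterning runs with enough counts were lower in melanocyte-open nuclei. The lists had 9 Hox and 18 patterning runs, and not all had enough counts. Over all runs tested, 34.5% were lower in UVB and 25.4% in anagen, against 22.9% and 15.8% of all stretches. All 5 Hox runs with enough counts in UVB and both in anagen were lower in melanocyte-open nuclei. The run over Hoxc6 and Hoxc5 (chr15:102994773-103015918, 25 features), genes that mark position along the body, had 11.4 CPM in melanocyte-open and 185 CPM in other-marker-open UVB nuclei, and 7.37 and 201 CPM in anagen. Of 14 patterning runs with enough counts, 8 were lower in UVB and 8 in anagen (57.1% each), and 4 and 3 were higher (28.6% and 21.4%, against 21.1% and 30.5% of all runs). The Twist1 run (chr12:33955777-33969287), over a mesenchymal factor gene, had 4.58 and 109 CPM in UVB and 4.26 and 122 CPM in anagen. The Tbx15 run, over a dermal T-box gene, had 12.6 and 172 CPM in UVB and 15.9 and 194 CPM in anagen. Patterning runs that were higher in melanocyte-open nuclei in both conditions lay over Alx1 and Runx3. The Alx1 run had 174 and 30.3 CPM in UVB and 91.9 and 35.6 CPM in anagen, and the Runx3 run of 14 features had 124 and 29.3 CPM in UVB and 111 and 54.7 CPM in anagen. The other-marker-open nuclei held 263 fibroblast-open nuclei in UVB and 249 in anagen, and how much of these ratios came from them was not tested. Against keratinocyte-open nuclei alone, the UVB ratios at En1, Hoxd3 and an Nfix run changed sign, with values given at the end. Against fibroblast-open nuclei alone, no named ratio past 1.5-fold changed sign.

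Among melanocyte-open nuclei, UVB was set against anagen over 1548 runs. Different clusters held these nuclei: of the 373 in UVB, 57.9% and 34.3% were in 2 clusters and 3.22% in another, which held 90.9% of the 395 in anagen. Marker lists of other cell types, except keratinocyte, had more counts in anagen. The widest gaps included 77.8 CPM in UVB and 158 CPM in anagen at endothelial and 26.3 and 61.6 CPM at T cell markers. Adipocyte markers had 35.5 and 107 CPM, and Schwann markers 117 and 195 CPM. Fibroblast markers were closer, at 69.8 and 91.1 CPM, as were pericyte and smooth muscle markers, at 177 and 202 CPM. Keratinocyte markers went the other way, with 408 CPM in UVB and 367 CPM in anagen. A Schwann marker had a count in 12.6% of UVB and 41.5% of anagen nuclei, which were deeper. The part of the clusters and markers in the ratios below was not tested. Of these 285 were higher in UVB (18.4%, against 27.9% of all stretches) and 376 were lower (24.3% against 14.6%). Of 863 runs with a gene start 141 were lower (16.3%), against 235 of 685 without one (34.3%). Among those without one, 15.5% of runs outside gene bodies were lower and 38.1% of runs that overlapped a gene. Depth differed, with medians of 1696 counts in UVB and 4391 in anagen. In nuclei of 1000 to 3000 counts, an alternative added after seeing the data with at least 50 counts per run, 250 UVB and 122 anagen nuclei had medians of 1574 and 1796.5 counts. There 321 of 1066 runs were higher (30.1%) and 167 lower (15.7%), and without nuclei above 3 times the median count 81 were higher and 15 lower. The lower minimum of 50 counts alone gave 511 higher and 823 lower, so the balance of higher and lower runs turned with the nuclei used. These choices change depth and the set of nuclei together, and the part of each was not tested.

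Most immediate early runs were higher in UVB than in anagen melanocyte-open nuclei. There 15 of 21 were higher in UVB than in anagen by over 1.5-fold, 1 was lower, and the median log2 ratio was 0.90, against -0.02 for all runs. In the depth-matched nuclei 13 were higher and 18 of 21 were above 1, with a median of 0.73 against 0.18 for all runs. Without nuclei above 3 times the median count 7 passed the call. How many of the 21 still had 200 counts is not given, and the part of lower counts in this was not tested. Against the 30 melanocyte-open telogen nuclei, 2 of 8 tested runs were higher and 0 lower in UVB (median 0.04), and 2 of 18 were higher and 10 lower in anagen (median -0.71). Over all runs tested there, 30.8% were higher and 11.2% lower in UVB (median 0.14), and 34.7% and 21.1% in anagen (median 0.18). The 8 and 18 runs are not the same set. With few telogen counts, a run reached 200 counts mostly through its UVB or anagen counts. These values thus do not place UVB and anagen against telogen at the list's runs. Over all nuclei 2 of 21 were higher in UVB than in anagen (median 0.20). The same runs over all nuclei were highest in telogen, with a median of 212 CPM in UVB, 188 CPM in anagen and 263 CPM in telogen. Of 7 housekeeping runs, 3 were higher in melanocyte-open UVB nuclei (median 0.18).

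Among the AP-1 genes, whose products bind DNA as pairs, the run over Jun (chr4:95045470-95057342, 14 features) had 457 CPM in UVB and 227 CPM in anagen melanocyte-open nuclei, a ratio of 2.01 (1.77 to 2.29). The Fos run (chr12:85472042-85480297, 12 features), whose upstream sequence is shown above, had 217 and 116 CPM, a ratio of 1.88 (1.56 to 2.26). The run over Iqcn, Lsm4 and Jund had 623 and 284 CPM, a ratio of 2.19 (1.96 to 2.45), and the Atf3 run had 217 and 101 CPM, a ratio of 2.15 (1.77 to 2.60). Fosl2 was not part of this: its run had 156 and 207 CPM, a ratio of 0.752 (0.618 to 0.909). Of the nuclear receptor genes, the Nr4a1 run had 349 and 178 CPM and the Nr4a2 run 184 and 78.3 CPM. Of the Klf zinc finger genes, the Klf2 run had 114 and 41.9 CPM, and its ratio of 2.73 (2.06 to 3.62) was the highest of the list. The Dusp1 run, over a MAP kinase phosphatase gene, was the one called lower, with 148 and 254 CPM and a ratio of 0.581 (0.478 to 0.703). The Jun, Fos, Nr4a1, Nr4a2, Klf2, Dusp1 and Fosl2 ratios stayed on their side of 1 without nuclei above 3 times the median count, without UVB tag number 19 and without anagen tag number 3.

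**Figure D5:**
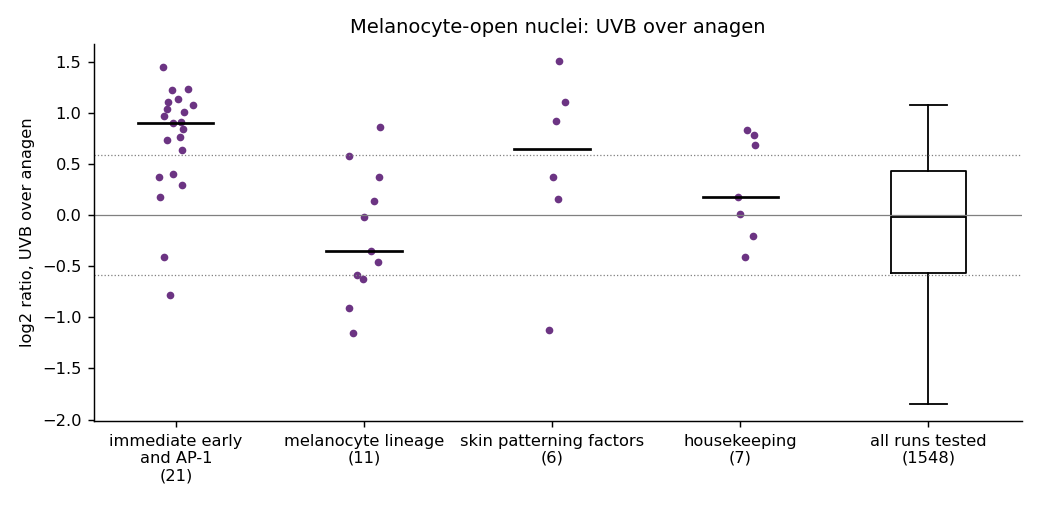
Log2 ratio of UVB to anagen in melanocyte-open nuclei for runs of 4 lists (points), beside a box of 1548 runs with the median, quartiles and whiskers from 5 to 95%. Of the 21 immediate early runs, 19 lie above 0.

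In the same nuclei the runs highest in UVB over anagen lay over Tagln2, Adgrg1, Dnm3 and Syn3 with Timp3 and near Cd69. The Tagln2 run, over a transgelin gene (chr1:172499008-172517398, 20 features), had 176 CPM in UVB and 22.9 CPM in anagen melanocyte-open nuclei, a ratio of 7.71 (5.67 to 10.6). The Dnm3 run, over a dynamin gene, had 325 and 51.2 CPM, a ratio of 6.35 (5.15 to 7.87). The lowest runs lay over Znrf1, Myh6, Wnt4, Smad6 and Slc24a4. The Wnt4 run, over a Wnt ligand gene, had 4 counts in UVB and 236 in anagen, a ratio of 0.0500 (0.0135 to 0.130). The Smad6 run, over an inhibitor of BMP signalling, had 8 and 412 counts, and the Znrf1 run had 1 and 217 counts, a ratio of 0.0136 (0.000343 to 0.0766). These ratios lie far outside the list medians.

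Comparisons with melanocyte-open telogen nuclei rest on 39172 counts in 30 nuclei. In anagen over telogen 412 of 1186 runs were higher (34.7%, against 28.9% of all stretches) and 250 lower (21.1% against 28.8%). In UVB over telogen 44 of 143 runs were higher (30.8% against 29.3%) and 16 lower (11.2% against 12.2%). Most runs had 0 or 1 count in telogen, so differences at single runs, such as those over Rapgef4, Tex2, Pcdh7, Aff3 and Csrp1 (highest in anagen over telogen) or Socs3, Slc39a14, Anxa11, Rap2b and Tgif1 (lowest), rest on few telogen counts. The first 5 had 1 telogen count each. The Socs3 run, over a cytokine feedback inhibitor gene, had 74.8 CPM in anagen and 562 CPM in telogen (22 counts), a ratio of 0.133 (0.0855 to 0.218). The Rap2b run, over a small GTPase gene, had 145 and 587 CPM (23 telogen counts), a ratio of 0.246 (0.162 to 0.393). In UVB over telogen the highest runs lay over Dnm3, Pcdh7, Nfia, Btg1 and Erf with Gsk3a, each with 1 or 2 telogen counts, and 4 of the lowest 5 over Pnrc1, Ctnnd1, Arrdc3 and Eif4a1 with Cd68, with 18 to 23 telogen counts.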

How the data were processed

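Single-nucleus ATAC-seq of 1 UVB, 1 anagen and 1 telogen pool was used. The authors deposited 1 matrix of whole-number counts per condition, by 500-bp feature and nucleus, with no value above 4 and no normalization. Per the submitters' processing notes, the tools were Bowtie2, SAMtools and MACS2 (versions not named) and the genome build was mm10, that is GRCm38. The counting step, any shift of cut sites for the transposase, filters on nuclei and removal of doublets were not given in the sources used here. Doublets were not looked for.

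A barcode sequence seen under several tag numbers of a condition was taken as copies of a nucleus where over 30% of the shallower one's open features were shared. The deeper copy was kept, and 61 UVB, 1721 anagen and 543 telogen copies were left out, which left 12349 nuclei. Counts were summed per stretch and group and divided by the group's total. A stretch was called at a ratio past 1.5-fold with at least 200 counts over both groups. A group at 0 was set to 3 counts. Intervals are exact conditional binomial intervals at 95%. Marker genes numbered 107, of which 105 had a feature within 2 kb of the gene. Gene names, starts and sequences come from RefSeq (GRCm38.p6), which has the coordinates of mm10.

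Named runs are the 10 with most features, the 5 highest and 5 lowest tested runs of each comparison between conditions, the 10 highest and lowest between kinds of nuclei, and those of the gene lists; rankings in anagen and UVB together were added after the values were seen. A run takes the names of the genes it overlaps most, otherwise of the nearest gene. The 101 runs on chromosome 18 were counted and not named, and 2 other runs that these rules select are not reported here. The members and lists were chosen with earlier results of these data known.

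Alternatives changed the gap, the run size, the count minimum, the fold, the scaling, the nuclei or tag numbers used and the way nuclei were classed. Sums and calls were tested on simulated counts. Tables were handled in Python 3.11.15 with pandas 2.3.3 and numpy 2.4.6, and intervals came from scipy 1.17.1. Clustering used leidenalg 0.10.2 on igraph 0.11.9 graphs, after scikit-learn 1.9.0 for the reduction, and plots used matplotlib 3.10.9.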

Additional observations from a re-analysis of the deposited data

Results flagged for a closer look

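The UVB over anagen ratio ran in opposite directions in the 2 kinds of nuclei, past 1.5-fold each way, at 4 of 1393 runs, of which 3 are given. The difference was not tested. The Klf2 run was 2.73 times as high in melanocyte-open UVB as in melanocyte-open anagen nuclei (114 and 41.9 CPM), and its ratio in other-marker-open nuclei was 0.591 (77.0 and 130 CPM). The Slc38a10 run, over an amino acid transporter gene, had ratios of 2.05 (141 and 68.6 CPM) and 0.580 (76.6 and 132 CPM). The Tuft1 run, over the tuftelin gene, had 0.204 (17.2 and 84.1 CPM) and 1.54 (41.5 and 26.9 CPM).

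The same rule gave 13 runs on the X chromosome, which the comparisons above do not use. The one with most features lay over Bcor, a transcriptional corepressor gene, with 17 features and 102 CPM in UVB, 96.1 CPM in anagen and 113 CPM in telogen nuclei.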

How the results depend on the processing

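No paired analysis was possible because each condition was 1 sample. Joining gaps of at most 1000 bp gave 1281 runs with 13410 features, and 3000 bp gave 5129 with 64740. A minimum of 6 features gave 6942 runs with 61270, and 10 gave 1817 runs. Counts of runs are given below as higher then lower. Without nuclei above 3 times the median count, anagen over telogen gave 452 and 185, and in melanocyte-open nuclei 3 and 3 (UVB over telogen 22 and 7, UVB over anagen 81 and 15). There 8 lineage runs were lower in UVB than in anagen, 7 immediate early runs were higher, and melanocyte-open over other-marker-open gave 1 and 22. Without UVB tag number 19, 767 runs were lower in UVB than in telogen, melanocyte-open UVB over telogen gave 23 and 10, 9 lineage runs were lower in UVB than in anagen, and melanocyte-open over other-marker-open gave 11 and 29. At least 1000 counts gave 138 and 212 in UVB over anagen, 236 and 111 in UVB over telogen, 175 and 93 in anagen over telogen, 4 and 2 in melanocyte-open anagen over telogen, 10 and 3 in melanocyte-open UVB over anagen, 11 and 9 lineage runs higher in anagen and in UVB than in telogen, 2 immediate early runs, and 0 and 4 between kinds of nuclei. At least 50 counts gave, in melanocyte-open nuclei, 511 and 823 in UVB over anagen, 413 and 275 in UVB over telogen and 536 lower in anagen over telogen, and 159 higher between kinds of nuclei. A fold of 2 gave 118 and 254 in UVB over anagen, 291 and 167 in UVB over telogen, 501 and 219 in anagen over telogen, and 96 and 215, 22 and 4, and 226 and 131 for these in melanocyte-open nuclei. It left 7 lineage runs lower in UVB than in anagen, 8 immediate early runs higher, and 4 and 30 between kinds of nuclei. Nuclei at 3 times the expected number gave 68 and 57, 0 and 0, and 56 and 26 in melanocyte-open nuclei in the same order, 3 immediate early runs, and 29 lower between kinds of nuclei. Nuclei classed by clustering gave 679 higher in anagen over telogen, 330 and 102 in UVB over telogen, 667 lower in UVB over anagen, and 136 and 370 between kinds of nuclei. Ratios divided by the median over all stretches gave 177 runs higher in melanocyte-open UVB over anagen. Between kinds of nuclei, all deposited barcodes gave 26 and 128, telogen tag numbers 8 to 10 gave 0 and 18, and keratinocyte-open, fibroblast-open or endothelial-open nuclei alone gave 0 and 15, 0 and 3, or 0 and 5. Of the alternatives added after seeing the data, telogen tag numbers 1 to 7 gave 6 higher in melanocyte-open anagen over telogen, 16 higher in UVB over telogen, and 3 and 1 between kinds of nuclei. There, leaving out anagen tag number 3 gave 11 higher, and anagen with UVB alone gave 282 and 369. Nuclei of 1000 to 3000 counts gave 167 lower in melanocyte-open UVB over anagen.

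Of 5393 alternative values for named runs, 4303 belong to ratios past 1.5-fold, and 26 of these changed sign. Of the 1090 that belong to ratios within 1.5-fold, such as Dct in UVB over anagen, 92 changed sign. Without nuclei above 3 times the median count, the UVB over anagen log2 ratio became 0.29 at the Pax3 run of 23 features, 0.27 at Lef1, 0.15 at Tyrp1, 0.15 at Tyr, 0.11 at Irf4 and 0.023 at the Kit run of 12 features. The UVB over telogen log2 ratio at 1 Oca2 run became -0.28 there and -0.58 without UVB tag number 19, which also gave -0.56 at the run over Hoxc9 and Hoxc10. With clustered nuclei Pcdh7 had -0.11 in UVB over telogen and -0.39 in anagen over telogen. Against keratinocyte-open nuclei alone the log2 ratios of melanocyte-open nuclei in UVB were -0.21 at Tfap2b, 1.23 at En1, 0.010 at Hoxd3 and 0.088 at an Nfix run; in anagen -0.039 at Myo10; and in telogen 0.085 at Fbn1 and 0.16 at the run over Nfix and Lyl1. Against endothelial-open nuclei alone they were -0.60 at Notch1, -0.50 at Cyrib and -0.094 at Tfeb in anagen, and 0.016 near Haao in telogen. With telogen tag numbers 1 to 7 the UVB over telogen log2 ratio was 2.75 at Myh6, and the telogen ratios between kinds of nuclei were 0.78 near Cebpb, 1.06 at Trim29 and 1.16 near Pim1. The cause was not tested, beyond the smaller numbers of counts and nuclei that these choices leave.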
